A study of Mus musculus with 2 samples.

Results

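Amacrine cells (AC) of cluster 6 were the cells that the deposited cell table names AC and places in cluster 6. They numbered 771 of the 1621 AC and of 30943 cells in all. The other 850 AC lay in cluster 14 (437 cells) and cluster 15 (413 cells). Cluster 6 was not made of AC alone, since it also held 220 cells named retinal ganglion cells (RGC) and 24 named horizontal cells (HC), which were left out here.

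The cells came from papain-dissociated retinas of mice 30 days old (P30), and RNA was counted cell by cell in droplets. There was 1 library from a Chx10-Cre mouse (Ptbp1-Ctrl) and 1 library from a Chx10-Cre;Ptbp1lox/lox mouse (Ptbp1-KO). Both mice therefore carried the Chx10-Cre transgene, which drives Cre recombinase in retinal progenitors, so AC descend from cells that had Cre. In Ptbp1-KO, loxP sites flank the promoter and first exon of Ptbp1, a splicing repressor of non-neuronal cells. With 1 library per genotype no test between genotypes was possible, and every difference between genotypes compares these 2 libraries only. All intervals are 95% intervals for counting error alone.

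Amacrine cells are the inhibitory interneurons of the inner retina. Most use either GABA, made by the glutamate decarboxylases Gad1 and Gad2, or glycine, taken up by the transporter Slc6a9, and both transmitters are loaded into vesicles by Slc32a1. GABAergic AC are diverse and many have wide arbors, whereas glycinergic AC, among them the AII cell of the rod pathway, mostly have narrow arbors.

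The 250 bases upstream of the RefSeq starts of Gad1 and Gad2, the genes that set the GABAergic class, are shown because AC are marked by transcription factors of the AP-2 family (Tfap2a, Tfap2b, Tfap2c). The sequences are from RefSeq on build GRCm38.p6, plus strand, and the capitals mark matches to the AP-2 motif GCCNNNGGC, whose reverse complement is the same motif. The Gad1 window (chr2:70561879-70562128) held 0 matches and the Gad2 window (chr2:22622077-22622326) held 2, starting at bases 9 and 130. Starts differ between annotations: the GENCODE genes begin at 70553072 (Gad1) and 22622205 (Gad2), so the Gad1 window lies within the GENCODE gene and the Gad2 window runs past its start.
Gad1: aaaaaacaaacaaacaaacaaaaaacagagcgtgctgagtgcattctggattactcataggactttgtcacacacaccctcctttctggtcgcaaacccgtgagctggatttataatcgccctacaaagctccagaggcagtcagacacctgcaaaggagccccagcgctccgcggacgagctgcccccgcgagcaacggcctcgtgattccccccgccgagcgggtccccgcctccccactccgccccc
Gad2: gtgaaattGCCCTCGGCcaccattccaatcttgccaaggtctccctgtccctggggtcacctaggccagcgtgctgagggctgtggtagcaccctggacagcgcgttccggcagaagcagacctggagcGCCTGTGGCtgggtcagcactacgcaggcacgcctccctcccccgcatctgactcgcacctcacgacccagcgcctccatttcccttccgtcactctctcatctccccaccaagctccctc
The motif occurred in 13.7% of 32851 promoter windows of this length and in 20.7% of those of the genes compared between AC below. Its share was 18.0% for genes at least 2-fold higher in cluster 6 than in other AC and 15.3% for those lower. A match is a description of letters and not of a binding site.

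Cluster 6 AC numbered 293 cells in Ptbp1-Ctrl and 478 in Ptbp1-KO. Their median depth was 2256 and 3684 UMIs (unique molecular identifiers), and their summed UMIs were 852011 and 1922415. Ptbp1-KO cells were thus deeper by a factor of 1.63. Depth moved the same way in cluster 14 (2792 and 4458.5 UMIs) and cluster 15 (2242 and 3374 UMIs). A total of 63 barcodes occurred in both libraries, none of them within cluster 6 AC.

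Ptbp1 itself (chromosome 10, 79854427 to 79864771, plus strand, GRCm38) matched the genotypes. Cluster 6 AC of the control held 14 of its UMIs and those of the knockout 1, for a log2 ratio of −4.98 (−10.38 to −2.26). Its paralog Ptbp2 was at 188 CPM (UMIs per 1000000 UMIs of the summed cells) and 194 CPM, with a log2 ratio of 0.04 (−0.23 to 0.32). The methods name female mice. Cluster 6 AC nevertheless held the Y-linked Eif2s3y at 214 and 189 CPM and Ddx3y at 93.9 and 93.1 CPM, and Xist had 2 and 0 UMIs. Both libraries thus went against that description in the same way.

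RNA of rods and other cell types was measured, because droplets can carry free RNA. The 7 rod markers made up 0.956% of the UMIs of cluster 6 AC in Ptbp1-Ctrl and 0.770% in Ptbp1-KO, against 0.519% and 0.530% in other AC and 4.16% and 3.82% in rods. The share of rod markers reached the 10th percentile of rods in 80 of 293 and 119 of 478 cluster 6 AC, and in 14 of 383 and 39 of 467 other AC. Of the defining markers of other types, the 6 HC markers summed to 138 and 170 CPM, against 10815 and 9638 CPM in HC. The 8 RGC markers summed to 211 and 169.6 CPM, against 228 and 192 CPM in cluster 14, 9.21 and 11.4 CPM in cluster 15 and 3269 and 2320 CPM in the RGC of cluster 6. The 6 MG (Müller glia) markers summed to 360 and 252 CPM, against 855 and 630 CPM in other AC. The part of this RNA in the results below was not tested beyond the values given without those cells.

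Cluster 6 AC were GABAergic by their summed transcripts. Gad1 (chromosome 2, 70553072 to 70602014, plus strand, GRCm38) stood at 479 CPM (434 to 528) in Ptbp1-Ctrl and 536 CPM (504 to 570) in Ptbp1-KO. It had no UMI in cluster 14, and 1 UMI in each library of cluster 15. Gad2 was at 250 and 279 CPM, against 34.3 and 36.2 CPM in cluster 14 and 4.61 and 5.17 CPM in cluster 15. The GABA transporter gene Slc6a11 was likewise highest in cluster 6. It was at 133 and 151 CPM in cluster 6 and at no more than 23.9 CPM in the others.

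Glycine handling showed the reverse order. Slc6a9 was at 151 and 200 CPM in cluster 6 AC, against 1028 and 1289 CPM in cluster 14 and 864 and 918 CPM in cluster 15. The neuronal glycine transporter Slc6a5 was at 17.6 and 20.3 CPM in cluster 6 and was highest in cluster 15, at 134 and 126 CPM. The vesicular transporter Slc32a1 did not separate the clusters: it lay between 189 and 249 CPM in all 3 clusters and both libraries. All 3 clusters thus had an inhibitory profile, and the other 2 had the glycinergic one.

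**Figure D1:**
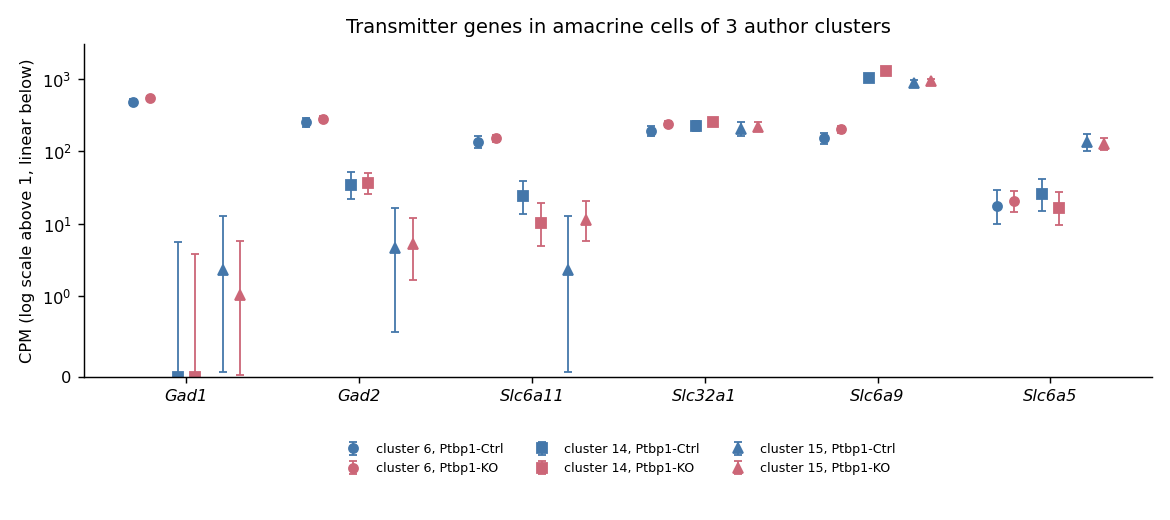
Levels of 6 transmitter genes (CPM, log scale above 1 and linear below) in AC of clusters 6 (circles), 14 (squares) and 15 (triangles), in Ptbp1-Ctrl (blue) and Ptbp1-KO (red), with 95% Poisson intervals. Gad1, Gad2 and Slc6a11 are highest in cluster 6, Slc6a9 is highest in clusters 14 and 15, and Slc32a1 is alike in all 3.

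Within cluster 6 the cells were not of 1 kind. A UMI of Gad1 or Gad2 without one of Slc6a9 was found in 105 of 293 cells of Ptbp1-Ctrl (35.8%, 30.3 to 41.6) and 173 of 478 of Ptbp1-KO (36.2%, 31.9 to 40.7). Slc6a9 without Gad was found in 53 (18.1%, 13.9 to 23.0) and 102 cells (21.3%, 17.7 to 25.3). Both were found in 17 (5.80%, 3.42 to 9.13) and 50 cells (10.5%, 7.86 to 13.6), and neither in 118 (40.3%, 34.6 to 46.1) and 153 cells (32.0%, 27.8 to 36.4).

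These shares depended on depth. The cells with neither had a median of 1269.5 and 1465 UMIs, whereas those with Gad alone had 4195 and 5955. At 1000 UMIs per cell, which left out 42 and 49 shallower cells, Gad alone was found in 33.1% and 32.2% of cells, Slc6a9 alone in 11.2% and 17.0%, both in 1.59% and 2.56%, and neither in 54.2% and 48.3%. Rods, which should lack both, had a Gad UMI in 0.368% and 0.559% of cells and a Slc6a9 UMI in 5.36% and 7.49%, at median depths of 1088 and 1288 UMIs. At 1000 UMIs per cell, 12.7% and 19.6% of cluster 6 AC had a Slc6a9 UMI, against 3.66% and 4.70% of rods.

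**Figure D2:**
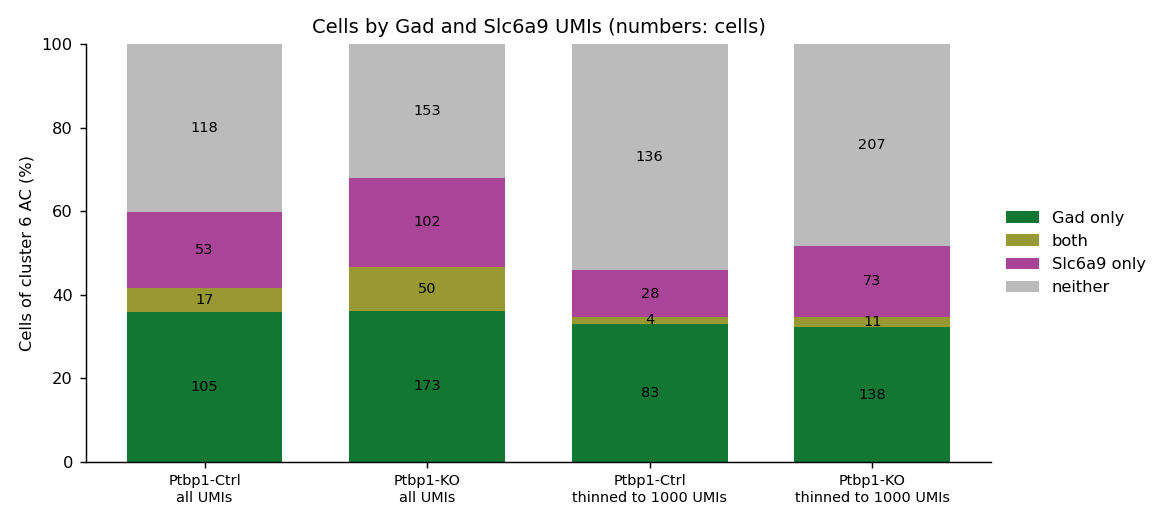
Shares of cluster 6 AC (%) with UMIs of Gad1 or Gad2 only, of both Gad and Slc6a9, of Slc6a9 only and of neither, with all UMIs and with cells thinned to 1000 UMIs, and the number of cells in each bar segment. Gad-only cells are 35.8% and 36.2% with all UMIs and 33.1% and 32.2% after thinning.

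The cells with neither transcript carried the most rod RNA, with rod markers at 1.95% (Ptbp1-Ctrl) and 2.13% (Ptbp1-KO) of all UMIs. In cells with Gad alone the figures were 0.562% and 0.429%. Pax6, a transcription factor of AC, was at 203 and 217 CPM in them and at 609 and 651 CPM in cells with Gad alone. Rbpms, a pan-RGC marker, had 15 and 22 UMIs in cells with neither, out of 16 and 34 in all cluster 6 AC.

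Genes of acetylcholine, dopamine and VGLUT3 were found in few cells. Chat, which makes acetylcholine in starburst AC, had 0 and 3 UMIs, and a UMI of Chat, Slc5a7 or Slc18a3 was found in 4 of 293 and 12 of 478 cells. Th, the first enzyme of dopamine synthesis, had 3 and 10 UMIs in 2 and 3 cells. Slc17a8, which encodes the vesicular glutamate transporter VGLUT3, had 34 and 85 UMIs in 8 and 11 cells. Of its 10 cells with at least 3 UMIs, 0 had a Gad UMI and 7 had a Slc6a9 UMI. Slc17a7, the vesicular glutamate transporter of photoreceptors, was found more widely, in 115 of 293 and 165 of 478 cells. It was at 251 and 191 CPM in cluster 6 AC, 146 and 151 CPM in other AC and 819 and 754 CPM in rods, and within cluster 6 it was highest in cells with neither Gad nor Slc6a9, at 431 and 448 CPM.

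Across genes, cluster 6 AC were compared with other AC within each library. This is a description, because the clusters were made from the same cells. Of 4727 genes with at least 50 CPM in one or both populations of each library and at least 50 UMIs in all, 289 (6.11%) were at least 2-fold higher in cluster 6 in both libraries and 235 (4.97%) were at least 2-fold lower. Without AC at the marker level of rods, cones or MG the counts were 316 and 228. An 8-fold difference was reached by 96 genes that were higher and by 14 that were lower. The log2 ratios of the 2 libraries had a Pearson correlation of 0.94 across the 4727 genes, which are not independent.

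Gad1 led the genes ranked by the smaller of their 2 log2 ratios, at a log2 ratio of 9.05 (6.56 to 14.35) in Ptbp1-Ctrl and 10.02 (7.54 to 15.32) in Ptbp1-KO. Its ratios rest on 1 UMI in other AC of each library, fewer than the 3 UMIs put in place of 0, so its rank depends on that rule. Ptprk, a receptor tyrosine phosphatase, followed at 7.73 (6.18 to 10.02) and 7.94 (6.58 to 9.82), with 493 and 978 UMIs in cluster 6 against 3 and 4 in other AC. Of the 15 leading genes, 3 concern ion channels: Kcnip1, a partner of Kv4 potassium channels, was at 306 and 363 CPM in cluster 6, Kcnd3, a Kv4 channel, at 273 and 330 CPM, and Fgf14, a partner of sodium channels, at 998 and 920 CPM. C1ql2, a secreted synaptic protein, had no UMI in other AC and was at least 70.9-fold and 124-fold higher in cluster 6, with 0 set to 3 UMIs per library. The others were Cxcl14, A230006K03Rik, Id4, Tnc, Cpne5, Gng2, Hpgd, AI593442 and Alcam.

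Genes lower in cluster 6 divided by the cluster that carried them. Tll1 (753 and 937 CPM), Gm45459 (465 and 465), Evc (120 and 96.1), Mapk12 (166 and 165), Fgf1 (147 and 191) and Lama3 (196 and 117) were highest in cluster 15. Esr1, the estrogen receptor alpha, was at 530 and 405 CPM in cluster 14 and at 11.7 and 4.68 CPM in cluster 6, and Fgf2 was likewise highest in cluster 14, at 97.0 and 98.2 CPM. Spink13 and Vegfc were carried by both. Spink13 was at 36.4 and 26.0 CPM in cluster 6, 610 and 586 CPM in cluster 14 and 493 and 462 CPM in cluster 15.

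**Figure D3:**
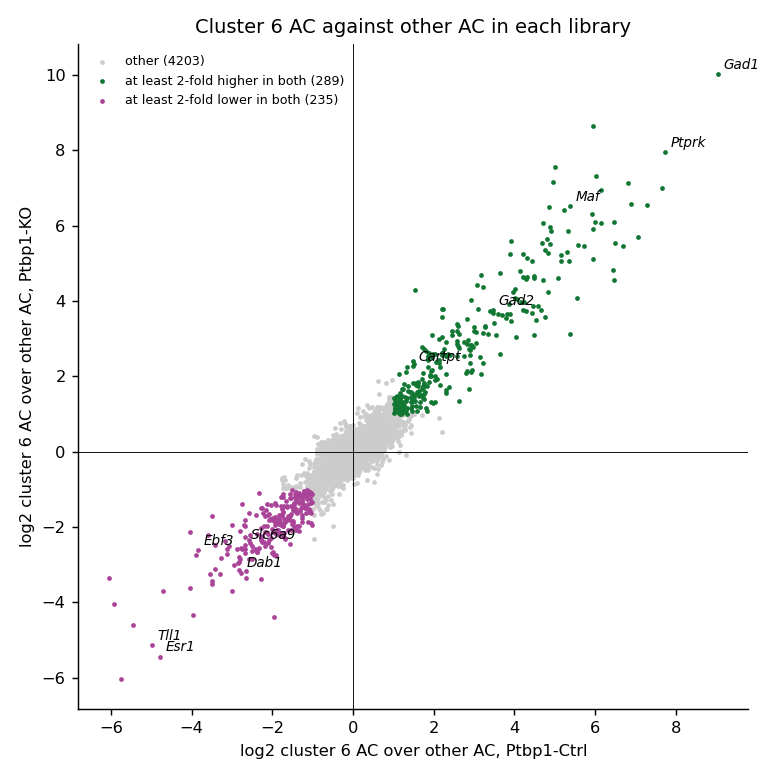
log2 ratio of cluster 6 AC over other AC in Ptbp1-Ctrl (x axis) and Ptbp1-KO (y axis) for 4727 genes, with zero counts set to 3 UMIs. Green points (289) are at least 2-fold higher and purple points (235) at least 2-fold lower in both libraries, and Gad1 lies farthest to the upper right.

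Transcription factors divided evenly. Of 34 on the list, 22 passed the filter, 7 were at least 2-fold higher in both libraries and 7 lower. Over all 4727 genes that passed it, 6.11% were higher and 4.97% lower. Those higher were Tfap2a, Meis1, Meis2, Bhlhe22, Zfhx3, Maf and Pou3f3. Tfap2a was not particular to cluster 6. A UMI of it was found in 20.1% and 25.7% of cluster 6 cells, 21.25% and 32.0% in cluster 15 and 2.24% and 3.74% in cluster 14. Meis2 was at 536 and 536 CPM against 50.7 and 40.3 CPM in other AC, and Maf at 528 and 378 CPM against 12.7 and 4.13 CPM. Those lower were Tfap2c, Neurod2, Ebf3, Prox1, Nfia, Nfib and Nfix. Pax6 and Tfap2b were within 2-fold in both libraries, at log2 ratios of −0.49 and −0.25 for Pax6 and 0.25 and 0.21 for Tfap2b. The Tfap2b ratio pools 2 unlike clusters. A Tfap2b UMI was found in 23.9% and 29.1% of cluster 6 cells, 2.69% and 3.27% in cluster 14 and 68.75% and 81.8% in cluster 15.

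Genes of the AII cell were low in cluster 6. Of 7 on the list, 6 passed the filter and 5 (Gjd2, Prox1, Dab1, Nfia and Car2) were at least 2-fold lower in both libraries. The share lower over all 4727 genes was 4.97%. Gjd2, the connexin of AII gap junctions, was at 41.1 and 34.9 CPM in cluster 6, 32.8 and 22.7 CPM in cluster 14 and 608 and 685 CPM in cluster 15. Calb1, Ncald and Cabp1, which encode calcium-binding proteins, were also at least 2-fold lower.

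Receptor genes differed subunit by subunit, and the counts stand beside 6.11% higher and 4.97% lower over all 4727 genes. Of 16 GABA receptor genes, 10 passed the filter, 5 were at least 2-fold higher, among them Gabra2, Gabrb1, Gabrb2 and Gabbr2, and Gabrg3 was lower, at 336 and 301 CPM against 1823 and 1790 CPM in other AC. Of the glycine receptor genes, Glra3 was higher, at 303 and 307 CPM against 61.6 and 99.2, and Glra2 lower. Of 19 glutamate receptor genes, 16 passed, and those higher included Gria1, Grin2a, Grin2b and Grm5, with Grik3 lower. The acetylcholine receptor genes Chrnb3 and Chrm3 were higher, Chrm3 at 218 and 252 CPM against 39.8 and 27.4 CPM.

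Synapse genes were mostly within 2-fold of other AC, whereas most channel and adhesion genes that passed the filter were not. This difference between lists was not tested. Across all 4727 genes, 6.11% were at least 2-fold higher and 4.97% lower. Of 21 synapse genes, 17 passed, Cplx2, Rims1 and Nrxn2 were higher and Cplx3 lower. The complexins Cplx2 and Cplx3, which regulate vesicle release, went opposite ways: Cplx2 stood at 298 and 403 CPM against 37.1 and 40.3, and Cplx3 at 469 and 585 CPM against 1686 and 1859. Of 15 sodium and calcium channel genes, 13 passed, 6 were higher (Scn3a, Cacna1a, Cacna1c, Cacna1e, Cacna2d1, Cacna2d2) and 3 lower, among them Scn1a and Cacna2d3. Of 18 adhesion genes, 14 passed, 6 were higher (Cntn1, Cntn3, Cntn5, Cntnap5a, Robo1, Robo2) and Sdk1 and Sdk2 were lower.

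Within cluster 6, neuropeptide transcripts sat in small sets of cells. Cartpt, the precursor of CART peptide, had 1359 UMIs in 40 cells of Ptbp1-Ctrl and 4285 UMIs in 62 cells of Ptbp1-KO. Of its 68 cells with at least 3 UMIs, 61 had a Gad UMI. Cartpt was not particular to cluster 6 or to Gad cells. A UMI of it was found in 13.7% (Ptbp1-Ctrl) and 13.0% (Ptbp1-KO) of cluster 6 AC. In cluster 14, which had the glycinergic profile, the shares were 78.0% and 86.4%. In cluster 15 they were 1.25% and 2.37%. Tac1, the precursor of substance P, had 80 and 131 UMIs in 16 and 37 cells. Vip had 11 and 95 UMIs in 3 and 10 cells, and all 9 cells with at least 3 Vip UMIs had a Gad UMI. Npy had 65 and 40 UMIs in 8 and 10 cells, and Tac2 had 11 and 105 UMIs in 2 and 4 cells, with 77 UMIs in 1 cell of Ptbp1-KO. The levels of these peptides in cluster 6 therefore rest on very few cells in each library.

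Cells with Gad alone and cells with Slc6a9 alone also differed in genes that had not set the classes. Of 4612 genes with at least 50 CPM in either class in each library, 243 (5.27%) were at least 2-fold higher in the Gad cells in both libraries and 200 (4.34%) lower. The 4612 genes include Gad1, Gad2 and Slc6a9, which set the classes and were left out of the ranking alone. The leading genes of the Gad cells were Cartpt, Maf, Stxbp6, Dach2, Cxcl14, C1ql2, Kcnd2 and Nav3. Maf was at 814 and 626 CPM in Gad cells, with 2 and 2 UMIs in Slc6a9 cells, and 96 of the 98 cells with at least 3 Maf UMIs had a Gad UMI. The leading genes of the Slc6a9 cells were Slc17a8, Lamp5, Frem1, Nxph1, Lgr5, Spink13, Col12a1 and Ptgds. Lamp5, a membrane protein of neurons, was at 303 and 242 CPM in Slc6a9 cells and 4.50 and 8.09 CPM in Gad cells.

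Among the listed factors, Ebf1 was low in cells with Gad alone. It was at 976 and 1230 CPM in Slc6a9 cells and at 709 and 809 CPM in cells with neither, and at 773 and 521 CPM in cells with both, against 54.0 and 10.1 CPM in Gad cells. Of 137 cells with at least 3 Ebf1 UMIs, 24 had a Gad UMI and 77 a Slc6a9 UMI. Tcf4 had the same order, at 1706 and 1911 CPM in Slc6a9 cells, 745 and 1087 CPM in cells with neither and 220 and 218 CPM in Gad cells. Outside cluster 6, Ebf1 was at 876 and 954 CPM in cluster 14 and at 2.30 and 13.4 CPM in cluster 15. Rod markers made up 1.08% and 0.957% of the UMIs of Slc6a9 cells and 0.562% and 0.429% of those of Gad cells, so rod RNA also differed between these classes.

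**Figure D4:**
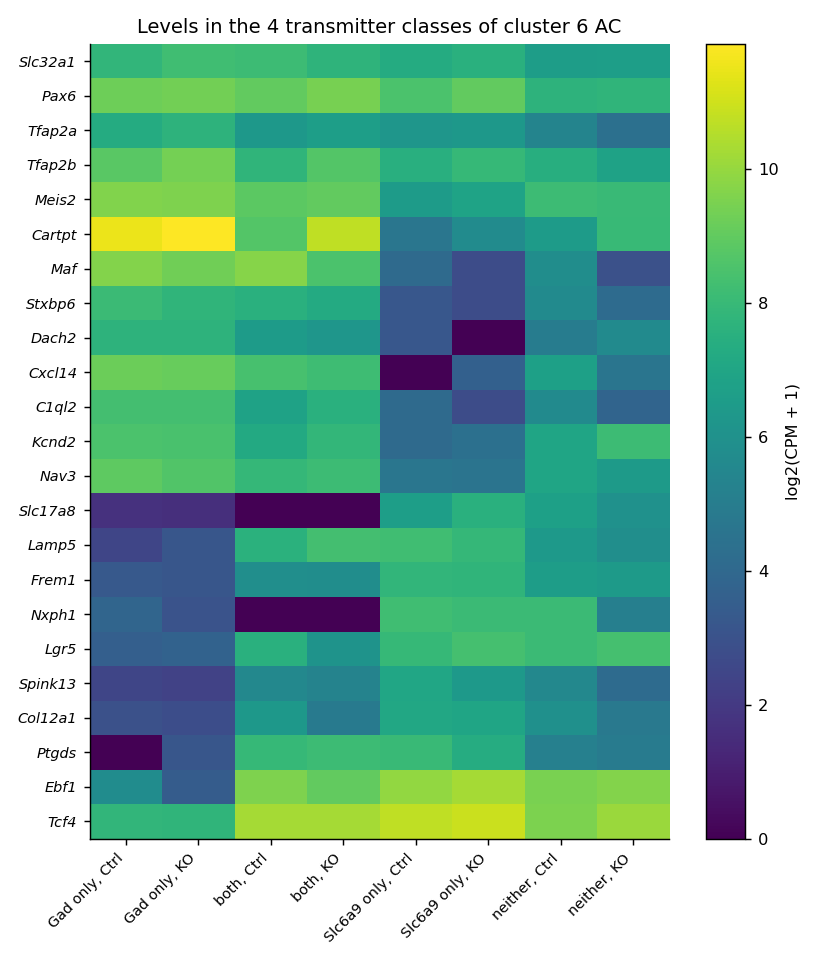
log2(CPM + 1) of 23 genes in cluster 6 AC grouped by their Gad and Slc6a9 UMIs, each class in Ptbp1-Ctrl and Ptbp1-KO. Cartpt to Nav3 are the leading genes of Gad-only cells and Slc17a8 to Ptgds those of Slc6a9-only cells, and Ebf1 and Tcf4 are lowest in Gad-only cells.

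The share of cluster 6 among AC was compared between the libraries, to ask whether the makeup of AC was alike in both retinas. Cluster 6 held 43.3% of AC in Ptbp1-Ctrl (39.6 to 47.2) and 50.6% in Ptbp1-KO (47.3 to 53.8), a ratio of 1.17. Cluster 14 had a ratio of 0.686 and cluster 15 a ratio of 1.13. As a share of all cells of the library, cluster 6 AC went from 1.78% to 3.29%, a ratio of 1.84. Cluster 15 was alike in this, at 1.79, and cluster 14 stood at 1.09. Without AC that reached the marker level of rods, cones or Müller glia, the shares of AC were 36.7% and 45.4%. Recovery of cells, depth and genotype cannot be told apart in a single library of each.

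Few genes of cluster 6 AC differed by 2-fold between the libraries. Of 4520 genes with a mean of at least 50 CPM, 6 (0.133%) were at least 2-fold higher in Ptbp1-KO and 8 (0.177%) at least 2-fold lower, and the median log2 ratio was 0.00. From the 5th to the 95th percentile, log2 ratios ran from −0.42 to 0.44. The counting interval lay above 0 for 8.85% of the genes and below 0 for 9.03%.

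The genes at least 2-fold higher were Erbb4, Irf2bpl, Sgcz, Pip4p1, Ppp1r9b and Wdr6. None of them reached 2-fold in other AC. Erbb4, a neuregulin receptor, rested on 61 control and 317 knockout UMIs (log2 1.20, 0.80 to 1.62), with 69 of the 317 in 1 cell. Sgcz, a sarcoglycan, had 75 and 363 UMIs (log2 1.10, 0.74 to 1.48), with 111 in 1 cell. Irf2bpl was spread more widely, with 33 UMIs in 30 cells and 171 UMIs in 125 cells, and at most 3 UMIs in a cell (log2 1.20, 0.66 to 1.78). Its log2 ratio in other AC was −0.19 (−0.60 to 0.22). With cells thinned to 1000 UMIs the log2 ratios of Erbb4 (0.69), Irf2bpl (0.59), Sgcz (0.68), Wdr6 (0.70) and Ppp1r9b (0.95) were below 2-fold. Pip4p1 had a larger log2 ratio there, 2.10 against 1.06, but was under the minimum level, so none of the 6 was counted. In cells with Gad alone the log2 ratio of Erbb4 was 3.06. All 3 control cells with at least 3 Erbb4 UMIs had a Slc6a9 UMI, so this class leaves them out. In it Irf2bpl (0.95), Ppp1r9b (0.83), Pip4p1 (0.82) and Sgcz (0.68) were below 2-fold, and Wdr6 was at 1.17.

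The genes at least 2-fold lower were Gm47283, Slc38a3, Tfrc, Gm48678, Cox7b, Cerkl, Ryr3 and Gm10260, and 4 of these 8 were also at least 2-fold lower in other AC. Gm47283 had a log2 ratio of −2.54 (−2.68 to −2.40) in cluster 6 and −2.53 (−2.67 to −2.40) in other AC. Cox7b, a subunit of cytochrome c oxidase, had −1.06 (−1.25 to −0.88) and −1.33 (−1.49 to −1.17). Gm47283 and Cox7b were thus low across AC of Ptbp1-KO. Gm47283 is annotated on chromosome Y. Predicted genes such as Gm47283 and Gm10260 can share reads with near-identical copies, and their values are uncertain. Slc38a3, a glutamine transporter, was at 106 and 42.7 CPM in cluster 6 (log2 −1.31, −1.76 to −0.86), and its log2 ratio in other AC was −0.06 (−0.62 to 0.51). With cells thinned to 1000 UMIs, Slc38a3 (−0.83) and Ryr3 (−0.77) were below 2-fold, whereas Tfrc (−1.65), Cerkl (−1.49) and Cox7b (−1.25) were not.

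**Figure D5:**
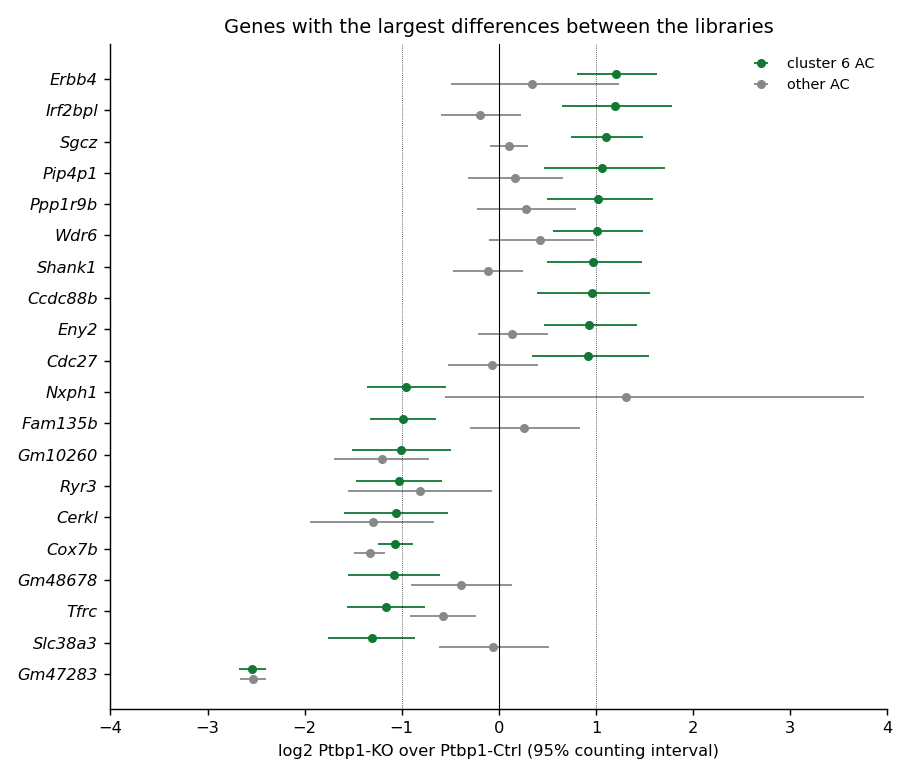
log2 ratio of Ptbp1-KO over Ptbp1-Ctrl with 95% counting intervals for the 10 highest and 10 lowest genes of cluster 6 AC (green) and the same genes in other AC (grey), with dotted lines at 2-fold. Gm47283 and Cox7b are low in both populations, and Ccdc88b has no grey point because it had no UMI in other AC of Ptbp1-Ctrl.

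The transmitter genes differed little between the libraries in cluster 6 AC. None of the 7 measured genes of the GABA list reached 2-fold, Gad1 had a log2 ratio of 0.16 (−0.0048 to 0.33) and Gad2 of 0.16 (−0.07 to 0.39), and Slc32a1 alone had an interval above 0, at 0.32 (0.06 to 0.59). Slc6a9 had 0.40 (0.11 to 0.70) in cluster 6 and 0.20 (0.09 to 0.30) in other AC. Across the 34 transcription factors, 28 had at least 20 UMIs, 7 had KO over Ctrl intervals above 0 (Pax6, Tfap2b, Ebf3, Lmo4, Tcf4, Nfia, Pou3f3) and 2 below 0 (Nfib, Maf). Of all 11295 genes with at least 20 UMIs, 5.76% had intervals above 0 and 5.6% below 0, so the 2 below 0 are near that share. Tfap2b had 0.53 (0.33 to 0.73) in cluster 6 and 0.56 (0.37 to 0.75) in other AC. Ebf3 had 22 and 116 UMIs, a log2 ratio of 1.22 (0.56 to 1.95), against −0.01 (−0.18 to 0.17) in other AC.

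Splicing factors and stress genes were also examined. Of 13 Ptbp and neuronal splicing genes, 12 had at least 20 UMIs, Celf4 (0.41, 0.30 to 0.52) and Elavl3 (0.40, 0.13 to 0.66) had intervals above 0, and Rbfox1 (−0.31, −0.44 to −0.19) had one below 0. These counts of 2 and 1 stand beside the 5.76% and 5.6% of all genes. All 10 dissociation stress genes with enough UMIs had intervals that spanned 0. Markers of photoreceptors and glia were lower in cluster 6 AC of Ptbp1-KO: intervals lay below 0 for 5 of 7 rod markers (median log2 ratio −0.39), 4 of 6 cone markers (−0.75) and 4 of 6 MG markers (−0.59). With cells thinned to 1000 UMIs the medians were −0.27 for rod, 0.025 for cone and 0.046 for MG markers, so of these 3 medians the rod one alone stayed below 0. Without cells at the marker level of rods, cones or MG, the summed MG markers were 213 CPM (Ptbp1-Ctrl) and 262 CPM (Ptbp1-KO), the opposite order. In the same setting the summed rod markers (4490 and 3052 CPM) and cone markers (458 and 86.0 CPM) were still lower in Ptbp1-KO. Leaving out those cells, 10 genes were at least 2-fold higher in Ptbp1-KO and 18 lower.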

How the data were processed

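Per the labels, the authors prepared 10x Genomics 3' version 3.1 libraries from papain-dissociated retina. According to the methods and processing notes they aligned reads to mm10 with Cell Ranger 7.0.1 and analysed cells in Seurat 4, keeping cells between 200 and 5000 genes and between 700 and 10000 UMIs, with mitochondrial UMIs under 20%. The deposited table holds raw UMI counts with no normalization, and the deposited cell table gives UMI totals, mitochondrial percent, cluster numbers and cell type names by the authors. Gene annotation and intron counting were not given in the sources used here. No doublet removal is stated, and no doublet caller was run. No per-sample column was left unmapped (0), and 2 columns of the cell table were not used.

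UMIs were summed per population and library and expressed as CPM with exact Poisson intervals. Log2 ratios have exact conditional binomial intervals and shares of cells Clopper-Pearson intervals. Genes needed at least 50 CPM and 50 UMIs, and members of lists at least 20 UMIs. A count of 0 was set to 3. Cells of 1 animal are not replicates, so the study's Wilcoxon test over cells was not used. The ratio code was tested on simulated data. Python 3.11.15, NumPy 2.4.6, SciPy 1.17.1, pandas 2.3.3, matplotlib 3.10.9 and edgeR 4.0.16 (TMM factors only) in R 4.3.3 were used.

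The members and gene lists were chosen with earlier results of these data known. Named genes are the 30 lists, the 15 highest and 10 lowest genes against other AC, the 10 highest and 10 lowest between genotypes, and the 8 most different each way between Gad and Slc6a9 cells. Alternatives were scaling, the CPM minimum, thinning, cell weighting and leaving out cells. Leaving out AC at the marker level of other types was added after seeing the data. It was first run with rods, cones, bipolar cells (BC) and Müller glia (MG). BC were then dropped, also after seeing its values, because the BC markers Prkca and Grik1 occur in AC and many rods reach the BC level. Both versions are given. A few members of the lists are counted but not reported by name.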

Additional observations from a re-analysis of the deposited data

Results flagged for a closer look

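Of 212 reported genes with at least 20 UMIs in both populations, 5 had log2 ratios of Ptbp1-KO over Ptbp1-Ctrl whose counting intervals lay on opposite sides of 0 in cluster 6 AC and in other AC, a share of 2.36%. Over all 10545 genes with as many UMIs the share was 0.484% (51 genes), and the reported genes include some ranked for their differences. The difference between the populations was not tested, since there is 1 library per genotype. Opn1sw, a cone opsin, had −0.87 in cluster 6 AC and 0.53 in other AC, and Trpm1, a channel of ON bipolar cells, had −0.81 and 0.51. They are on the cone and bipolar cell marker lists. Cartpt had 0.48 and −0.29, and its UMIs lay in 40 and 62 cells of cluster 6. The adhesion genes Cntn5 and Cntnap2 had 0.24 and −0.57, and −0.41 and 0.20.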

How the results depend on the processing

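No paired analysis was possible because each genotype has 1 library, and for the same reason no value has a replicate error. The genes at least 2-fold higher in cluster 6 than in other AC (289) were 584 with a minimum of 10 CPM, 92 with 200 CPM and 587 with no CPM minimum, and those lower (235) were 397, 99 and 400. The genes at least 2-fold higher in Ptbp1-KO (6) were 84, 0 and 84 under these minimums, and those lower (8) were 41, 2 and 41. With cells thinned to 1000 UMIs they were 26 and 13, with a mean of per-cell CPM 14 and 17, and without cells at the level of rods, cones or MG 10 and 18 (11 and 16 where BC were included). Leaving out the 5% of AC with most genes gave 15 higher genes.

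Of the 6 higher genes, 0 remained after thinning and 2 with the per-cell mean, and of the 8 lower genes 4 and 5. The cause was not tested. The share of cluster 6 among AC (43.3% and 50.6%) was 36.7% and 45.4% without cells at the level of rods, cones or MG and 35.3% and 44.4% where BC were included. As a share of the library it was 1.78% and 3.29%, a ratio of 1.84 in place of 1.17.

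With at least 2 UMIs, Slc6a9-only cells were 9.56% in Ptbp1-Ctrl and 14.4% in Ptbp1-KO, cells with both 2.39% and 2.51%, and cells with neither 57.3% and 45.2%. Thinned, they were 11.2% and 17.0%, 1.59% and 2.56%, and 54.2% and 48.3%. The median log2 ratio of RGC markers over other AC (1.24 and 1.51) was −0.082 and −0.25 after thinning. Of the values of leading genes, 128 between genotypes stayed within their counting interval and 12 moved, as did 322 and 28 against other AC. Of the list medians, 164 moved by under 0.1, 79 by more, and the 2 given above, of at least 2-fold, changed sign. Smaller medians that changed sign, such as those of the cone and MG markers between genotypes, are not among the 2.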
